A study of Drosophila melanogaster with 2 samples.

Results

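The cuticular protein genes named Cpr were examined for binding by Asciz (CG14962), a transcription factor with zinc fingers that is known to act on ctp, which encodes the LC8 dynein light chain. The members were all protein-coding genes whose symbol begins with Cpr and a digit, which gave 70 of the 13945 protein-coding genes on the 6 chromosomes used. ChIP-seq, the sequencing of DNA precipitated with a chromatin protein, had been carried out on whole Drosophila melanogaster embryos of mixed sex, aged 0 to 24 h. The embryos came from 1 stable transgenic line that makes CG14962 fused to GFP at its C terminus, and an anti-GFP antibody was used for precipitation, per the sample descriptions. The only group had 2 libraries from that line, biological replicates 1 and 3, and no other condition was present. Each library was made from whole animals, so weak binding in many cells and strong binding in few cells cannot be told apart.

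Cuticular proteins of the Cpr family are secreted by the epidermis and other ectodermal linings and are built into the chitinous exoskeleton. They carry the Rebers and Riddiford consensus, a sequence that binds chitin, and different members are used in different stages and parts of the body. The number and letters in a Cpr symbol give the cytological band of the gene, and members of the same band often lie side by side as products of tandem duplication. Other genes with the same consensus have older names such as Lcp, Acp or Edg. Those are not among the 70 and are treated further on as a related group.

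A member was called bound when a summit of the authors' reproducible list lay within 500 bp of one of its transcription start sites (TSSs). Only Cpr65Av and Cpr65Ea met this rule. Both lie in chromosome arm 3L on the minus strand, in separate gene clusters. In each case the summit was upstream of the gene, and no other annotated gene had a TSS within 500 bp of it.

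The Cpr65Av gene (FBgn0052405) spans chr3L:6139223-6139974, and its peak spans chr3L:6140168-6140591 in dm6, with the summit at position 6140380. The Cpr65Ea gene (FBgn0035735) spans chr3L:7086003-7086608, and its peak spans chr3L:7086601-7087024, with the summit at position 7086813. The summit was 406 bp upstream of the TSS of Cpr65Av and 205 bp upstream of that of Cpr65Ea. The bases within 50 bp of each summit are given below because they are the only sequences of the family that the reproducible list places at a promoter. They are read from the release 6 assembly of RefSeq on the plus strand, at chr3L:6140330-6140430 and chr3L:7086763-7086863. Capitals mark runs of 6 or more bases that are only A or T.
Cpr65Av: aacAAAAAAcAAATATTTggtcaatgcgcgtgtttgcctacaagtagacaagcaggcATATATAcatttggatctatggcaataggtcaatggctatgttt
Cpr65Ea: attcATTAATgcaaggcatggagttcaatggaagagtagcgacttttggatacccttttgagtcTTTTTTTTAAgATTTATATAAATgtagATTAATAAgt
The Cpr65Av window was 63.4% A+T and held 3 such runs, the longest of 8 bp. The Cpr65Ea window was 70.3% A+T and held 4 runs, the longest of 12 bp, all but 1 of them in the right-hand part of the window. Over all 5085 reproducible summits the same windows averaged 66.3% A+T ± 8.77 (SD, over summits), so both members were within 1 SD of that mean. The Cpr65Av window had more A+T than 32.0% of all windows and the Cpr65Ea window more than 61.8%. Runs of this kind were present in 93.4% of all windows, with a median of 3 runs and a median longest run of 10 bp.

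The core promoters of both genes lie between the summit and the gene and are given on the minus strand, in the direction of transcription, from 50 bp before to 10 bp after the TSS, at chr3L:6139964-6140024 and chr3L:7086598-7086658. Capitals mark the letters TATAAA of a TATA box.
Cpr65Av core: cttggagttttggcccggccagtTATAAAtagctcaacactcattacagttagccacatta
Cpr65Ea core: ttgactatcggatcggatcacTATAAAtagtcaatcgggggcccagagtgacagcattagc
The TATA letters start 27 bp before the TSS of Cpr65Av and 29 bp before that of Cpr65Ea. Neither summit window overlaps the core promoter, and the peak of Cpr65Ea reaches across its TSS whereas that of Cpr65Av ends upstream of it.

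The signal of a region is the authors' own value, on a scale that differs between lists. The libraries were therefore compared by a relative signal. It is the signal of the strongest region of a replicate list that overlaps the peak, divided by the median of that library over reproducible peaks, which was 91.7 in replicate 1 and 124 in replicate 3. A relative signal of 1 is thus that of a typical reproducible peak. The lists give no read counts, so library depth is unknown and values carry no counting error. The reproducible list consists of the 5085 highest regions of the pooled list, and the presence of its peaks in each library is thus partly built in. A region of the replicate 1 list overlapped 4910 of these peaks and one of the replicate 3 list 5080, so not every peak was in both libraries.

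At Cpr65Av the relative signal was 0.622 in replicate 1 and 0.895 in replicate 3, a mean of 0.759 ± 0.193 (SD, n = 2). At Cpr65Ea it was 0.753 in replicate 1 and 0.739 in replicate 3, a mean of 0.746 ± 0.00961 (SD, n = 2). Both members were below the typical reproducible peak in both libraries. The libraries gave the genes in opposite order, and the difference between the 2 means was smaller than the SD at Cpr65Av. The replicate summits lay 1 bp from the pooled summit in both libraries at Cpr65Av, and 35 bp and 30 bp from it at Cpr65Ea in replicates 1 and 3.

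In the pooled list the peak of Cpr65Av had a signal of 170 and rank 3400, and that of Cpr65Ea a signal of 154 and rank 3889. The median over all reproducible peaks was 205, with quartiles of 156 and 315 and a lowest value of 127. Among the 1916 bound protein-coding genes, each taken by its strongest peak, the median signal was 239, and 25.5% had a lower signal than Cpr65Av and 18.6% a lower one than Cpr65Ea. Both peaks were thus in the lower part of the reproducible list.

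**Figure D1:**
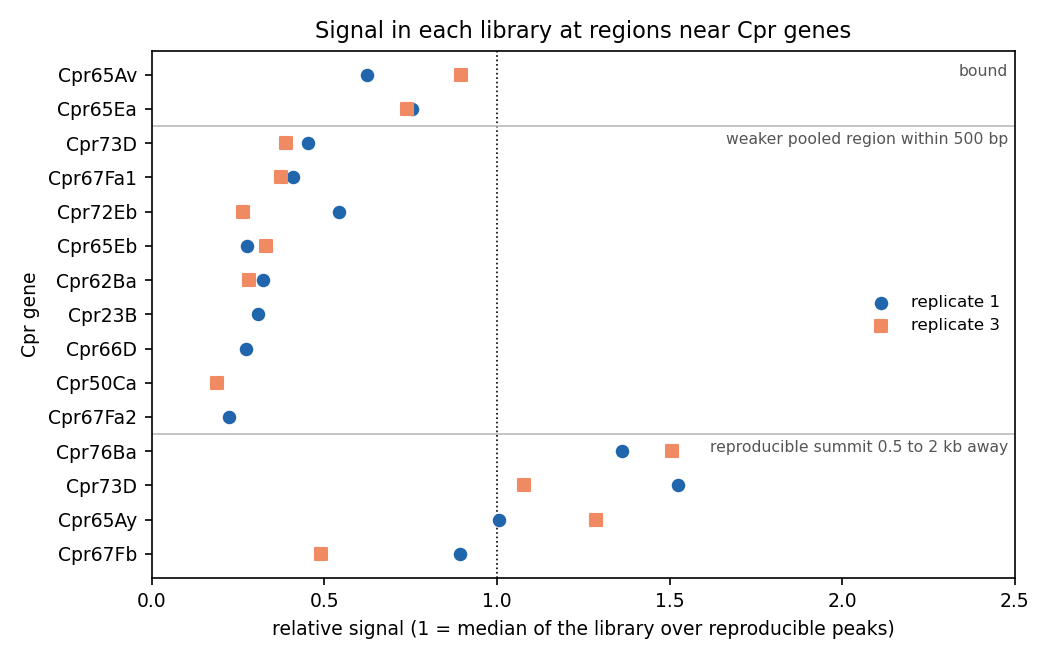
Relative signal (x axis, 1 is the library's median over reproducible peaks) in replicate 1 (circles) and replicate 3 (squares) for regions near Cpr genes (y axis), in 3 blocks from top to bottom: bound members, weaker pooled regions within 500 bp, and reproducible summits 0.5 to 2 kb away. The bound members lie between 0.622 and 0.895, the weaker regions between 0.190 and 0.541, and a missing point means that the library's relaxed list has no region there.

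The bound members were 2 of 70 Cpr genes (2.86%), whereas 13.7% of all protein-coding genes were bound (1916 of 13945). Thus 68 members had no reproducible summit within 500 bp. Both bound members are on 3L, where 35 of the Cpr genes lie and where 422 of 2739 protein-coding genes (15.4%) were bound. Genes with several annotated TSSs have more chances to be called, and 63 of the 70 members have 1. Among genes with 1 TSS, 2 of 63 Cpr genes (3.17%) and 926 of 10246 protein-coding genes (9.04%) were bound. The share of the family remained the smaller one, and the members are not independent of each other, since many share a cluster.

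The relaxed lists hold 30000 regions each, peaks and background together by design, and a region in them is no call of binding. By the same distance rule, 11 Cpr genes (15.7%) had a summit in the pooled relaxed list, against 35.2% of all protein-coding genes. In the relaxed list of replicate 1 the count was 15 (21.4%) against 32.7%, and in that of replicate 3 it was 12 (17.1%) against 41.4%. A summit in both replicate lists was present at 8 Cpr genes (11.4%) against 26.2% of protein-coding genes. The family's share was the smaller one in each list, and the gap was widest in replicate 3. Taking any of the 3 relaxed lists, 19 members (27.1%) and 6796 of all protein-coding genes (48.7%) had a summit, so that 51 members had none.

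**Figure D2:**
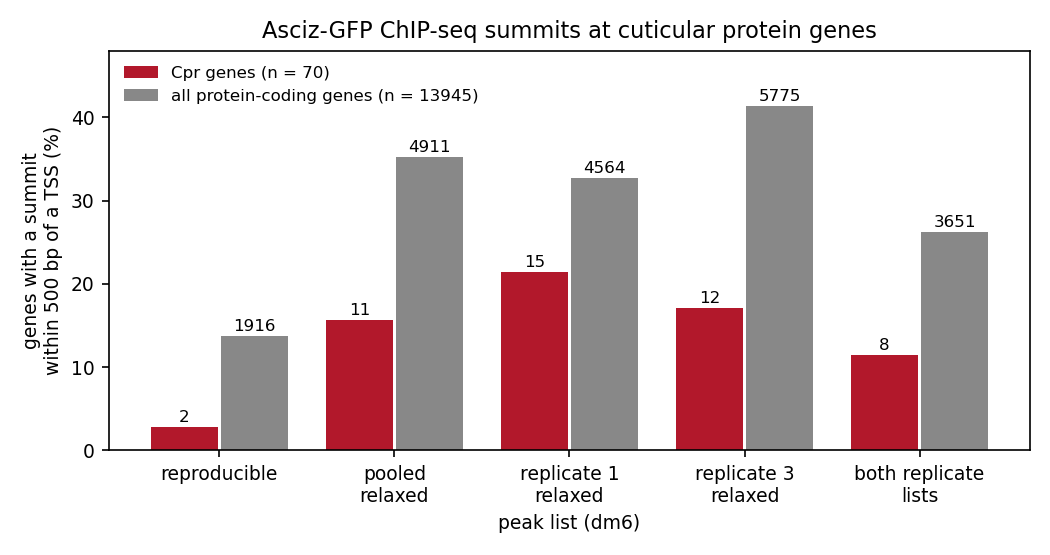
Share of genes (y axis, %) with a summit within 500 bp of a TSS in each dm6 peak list (x axis), for the 70 Cpr genes (left bar of each pair) and all 13945 protein-coding genes (right bar), with the number of genes above each bar. The Cpr bar is the lower one in every pair, from 2.86% beside 13.7% in the reproducible list to 21.4% beside 32.7% in replicate 1.

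The 19 members divided by list as follows. A summit in all 3 relaxed lists was found at 7 of them, the bound Cpr65Av and Cpr65Ea and the unbound Cpr62Ba, Cpr65Eb, Cpr67Fa1, Cpr72Eb and Cpr73D. Cpr23B, Cpr66D and Cpr67Fa2 were in the pooled list and replicate 1 only, and Cpr50Ca in the pooled list and replicate 3 only. Cpr49Af was in both replicate lists but not in the pooled one, where its nearest summit lay 521 bp upstream, just outside the rule. Cpr49Ab, Cpr65Aw, Cpr67Fb and Cpr78Ca were in replicate 1 alone, and Cpr64Aa, Cpr67B and Cpr78Cc in replicate 3 alone. In all, 11 members (15.7%) had a summit in exactly 1 of the replicate lists, as had 21.8% of all protein-coding genes.

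The other 9 members with a pooled relaxed summit, each taken by its strongest region, were ordered by signal. Cpr73D had the highest, 92.7 at rank 7982, with a summit 290 bp upstream of the TSS and relative signals of 0.452 in replicate 1 and 0.390 in replicate 3. That summit lies inside the transcribed span of Ogdh, which encodes a subunit of the 2-oxoglutarate dehydrogenase complex. Cpr67Fa1 had a signal of 83.9 at rank 9233, 459 bp upstream, with relative signals of 0.408 in replicate 1 and 0.374 in replicate 3. The pooled list has a further summit at this promoter, 247 bp upstream, with a signal of 65.4 at rank 13194. The replicate 1 summit, 436 bp upstream, lay near the stronger of these pooled summits, and the replicate 3 summit, 273 bp upstream, near the weaker one. Cpr73D and Cpr67Fa1 were at less than 0.5 of a typical reproducible peak in both libraries.

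Cpr72Eb had a signal of 79.3 at rank 9981, 480 bp upstream, with relative signals of 0.541 in replicate 1 and 0.265 in replicate 3, the widest difference between libraries among the 5 present in both. Cpr65Eb, the neighbour of Cpr65Ea, had a signal of 71.8 at rank 11526, 186 bp upstream, with 0.276 in replicate 1 and 0.331 in replicate 3. Cpr62Ba had a signal of 54.8 at rank 17161 and was the only one of the 9 with the summit downstream of the TSS, by 298 bp, with 0.322 in replicate 1 and 0.282 in replicate 3. Means over both libraries were 0.421 ± 0.044 at Cpr73D, 0.403 ± 0.195 at Cpr72Eb, 0.391 ± 0.0245 at Cpr67Fa1, 0.304 ± 0.0393 at Cpr65Eb and 0.302 ± 0.0285 at Cpr62Ba (SD, n = 2 each). Cpr73D and Cpr67Fa1 were above Cpr65Eb and Cpr62Ba in both libraries, whereas the SD at Cpr72Eb spans the other 4 means and leaves its place in the order unsettled.

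The other 4 regions were in 1 replicate list each. Cpr23B had a pooled signal of 51.4 at rank 18867, 372 bp upstream, and a relative signal of 0.306 in replicate 1, but the TSS nearest to that summit, at 206 bp, is that of CG3119. Cpr66D was at rank 22969, 235 bp upstream, with 0.272 in replicate 1, and Cpr67Fa2 had 44.1 at rank 23578, 431 bp upstream, with 0.223 in replicate 1. Cpr50Ca had 44.9 at rank 23025, 299 bp upstream, with 0.190 in replicate 3. The signals of Cpr66D, Cpr50Ca and Cpr67Fa2 were in the lower part of the pooled relaxed list, whose median was 60.1 and lowest value 37.2, while that of Cpr23B was nearer the median.

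Some members had a summit within 500 bp in replicate lists alone. The regions of Cpr49Ab, Cpr49Af, Cpr65Aw and Cpr78Ca in replicate 1 had relative signals of 0.303, 0.227, 0.224 and 0.296. In replicate 3 those of Cpr49Af, Cpr64Aa, Cpr67B and Cpr78Cc had 0.189, 0.188, 0.182 and 0.210. All of these were at rank 16631 or below of 30000, and their relative signals overlapped those of the 4 members found in the pooled list and 1 replicate. Cpr67Fb had a stronger region, whose replicate 1 summit, 495 bp upstream, had a relative signal of 0.894 at rank 2820. In the pooled list that summit lay 524 bp upstream, just outside the rule, in a reproducible peak.

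In the reproducible list, Cpr65Av was the member just inside the threshold at 406 bp. Cpr67Fb was thus the one just outside it at 524 bp. The peak spans chr3L:10893437-10893860, with the summit at 10893649, in an exon of the antisense RNA gene asRNA:CR45171. Its pooled signal was 142 at rank 4370. The relative signal was 0.894 in replicate 1 and 0.489 in replicate 3, a mean of 0.691 ± 0.286 (SD, n = 2), which spans the means of both bound members. The sequence is given because it differs in composition from those of the bound members, and it is followed by the windows of the 2 weaker regions of highest and most uneven signal, Cpr73D and Cpr72Eb. All are on the plus strand of the release 6 assembly of RefSeq, at chr3L:10893599-10893699, chr3L:16957929-16958029 and chr3L:16364369-16364469, with A or T runs of 6 or more bases in capitals.
Cpr67Fb: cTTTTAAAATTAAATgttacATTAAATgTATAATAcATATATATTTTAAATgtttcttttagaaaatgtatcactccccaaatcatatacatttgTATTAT
Cpr73D: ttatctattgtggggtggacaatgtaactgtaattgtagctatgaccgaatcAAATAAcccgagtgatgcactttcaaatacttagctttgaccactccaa
Cpr72Eb: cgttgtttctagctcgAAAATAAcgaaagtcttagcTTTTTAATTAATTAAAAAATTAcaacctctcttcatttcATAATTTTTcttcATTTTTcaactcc
The Cpr67Fb window was 82.2% A+T, above 97.8% of all reproducible windows, with 5 runs and a longest of 15 bp. The Cpr73D window was 61.4% A+T with 1 run of 6 bp, and the Cpr72Eb window 73.3% with 4 runs and a longest of 22 bp, a length exceeded in 2.91% of reproducible windows. The 9 weaker windows averaged 64.9% A+T ± 9.36 (SD, over regions) and ranged from 52.5% to 75.2%. The weaker regions thus reached past both quartiles of the reproducible summits, 60.4% and 72.3%, and the pair of bound windows lay inside that spread.

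Beyond 500 bp, a few reproducible peaks lay close to unbound members, and some of them were stronger than those of the bound members. Cpr73D had a reproducible summit 767 bp downstream of its TSS, in an intron, with a signal of 275 at rank 1576 and relative signals of 1.52 in replicate 1 and 1.08 in replicate 3. The TSS nearest to it was that of Ogdh, at 517 bp. Cpr65Ay had a summit 820 bp downstream of its TSS and past the end of the gene, with a signal of 251 at rank 1835 and relative signals of 1.01 in replicate 1 and 1.29 in replicate 3. That summit lay within 500 bp of CG13297, at 433 bp.

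Cpr76Ba had an intergenic summit 1580 bp downstream of its TSS and past the end of the gene, at position 19516752 of the peak chr3L:19516540-19516963, with a signal of 312 at rank 1293. Its pooled signal was the highest among the peaks near members given here, with relative signals of 1.36 in replicate 1 and 1.51 in replicate 3. Cpr67Fa2 completed the 5 unbound members with the nearest summits, 1935 bp from the summit of Cpr67Fb. The order of the peaks by relative signal was unlike that by distance, since the peaks at 767 to 1580 bp exceeded both bound members in both libraries.

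The distance from each gene to its nearest reproducible summit was a median of 11463 bp for Cpr genes, with quartiles of 3985 and 20543 bp, against a median of 9332 bp for all protein-coding genes, with quartiles of 2571 and 22528 bp. The farthest member was Cpr78E, at 141428 bp. Between 500 bp and 1 kb lay 3 Cpr genes (4.29%) against 3.25% of protein-coding genes, and between 2 and 5 kb 13 (18.6%) against 13.2%. Beyond 20 kb lay 20 (28.6%) against 28.2%. Of these bins, the shares were closest beyond 20 kb.

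In the pooled relaxed list the median distance was 2064 bp for Cpr genes and 1717 bp for all protein-coding genes, and the nearest summit to any member was at 186 bp. Between 500 bp and 1 kb lay 13 Cpr genes (18.6%) and 7.69% of protein-coding genes. Within 200 bp there was 1 Cpr gene, Cpr65Eb, against 23.7% of protein-coding genes. All but 1 of the 11 members in this list thus had the summit more than 200 bp from the TSS.

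**Figure D3:**
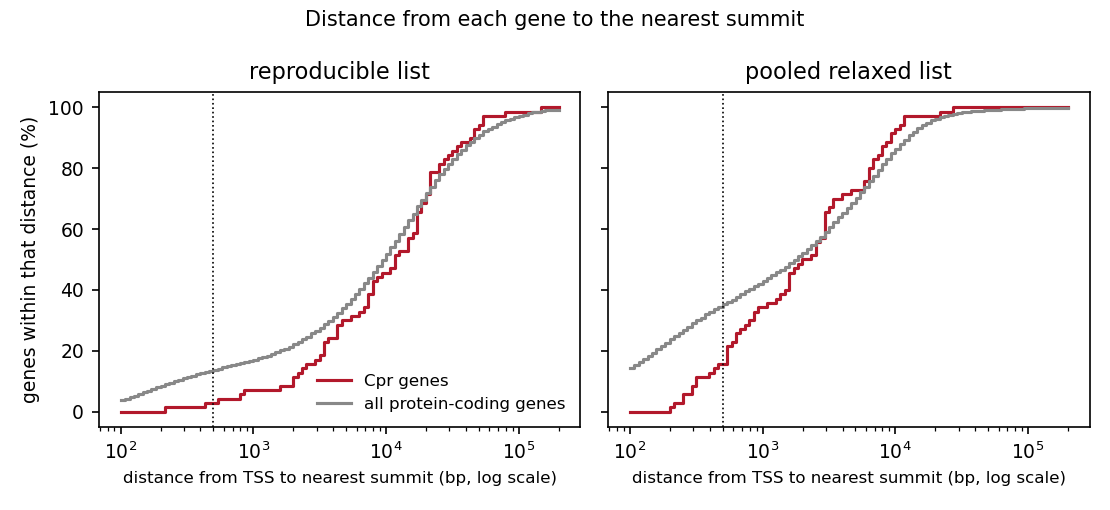
Cumulative share of genes (y axis, %) with their nearest summit within a given distance of a TSS (x axis, bp, log scale), for Cpr genes (red) and all protein-coding genes (grey), in the reproducible list (left) and the pooled relaxed list (right), with the 500 bp threshold dotted. Cpr genes lie below the grey line at short distances, 2.86% beside 13.7% at 500 bp on the left and 15.7% beside 35.2% on the right, and the lines meet near 20 kb on the left and between 2 and 3 kb on the right.

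Members were joined into a cluster where the gap between neighbours was at most 20 kb. This gave 12 clusters of 2 or more, holding 49 members, and 21 single genes. A bound member was present in 2 clusters, a member with a pooled relaxed summit in 6, and a reproducible summit anywhere in the span in 4. No single gene was bound. The spans together measured 212.77 kb and held 7 reproducible summits, or 3.29 per 100 kb, against 3.80 per 100 kb over the 6 chromosomes. In the pooled relaxed list there were 16.4 summits per 100 kb in the spans, against 22.4 over the chromosomes. Of the 7 reproducible summits in the clusters, 2 were at a member's promoter.

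The cluster from Cpr65Au to Cpr65Az spans chr3L:6131242-6161589 and holds 7 members together with 10 other cuticular protein genes of the Lcp65A and Acp65A names. It held 2 reproducible summits, that of Cpr65Av and the one beside CG13297 and Cpr65Ay. Of the other members, only Cpr65Aw was reached within 500 bp by a relaxed list, that of replicate 1. Its nearest pooled and replicate 3 summits lay 537 bp and 527 bp downstream of the TSS, just outside the rule. No relaxed list reached Cpr65Au, Cpr65Ax1, Cpr65Ax2, Cpr65Ay or Cpr65Az within 500 bp. Cpr65Ax1 and Cpr65Ax2 are copies with identical coding sequences of 306 bp, and only 26.4% and 28.5% of the 50-base words within 500 bp of their TSSs occur once in the genome. Reads from these 2 genes could not be told apart by much of the sequence, and the treatment of such reads is not given in the sources, so their lack of a region is uncertain.

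The cluster from Cpr65Ea to Cpr65Ec, at chr3L:7086003-7093841, was the most densely marked. Its 3 members share 7.84 kb with 2 reproducible and 6 pooled relaxed summits. Apart from the Cpr65Ea peak, a reproducible summit at position 7090997 lay between Cpr65Eb and Cpr65Ec, 2210 bp and 2207 bp from their TSSs, with a signal of 206 and relative signals of 1.04 in replicate 1 and 0.907 in replicate 3. In both libraries this intergenic region was above that of the Cpr65Ea promoter. Cpr65Ec itself had no summit within 500 bp in any relaxed list.

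The cluster from Cpr67Fa1 to Cpr67Fb, at chr3L:10889990-10894693, was the only one in which every member had a summit in at least 1 relaxed list. The pooled list reached Cpr67Fa1 and Cpr67Fa2, and the replicate 1 list also Cpr67Fb. Cpr67Fa1 and Cpr67Fa2 are 96.5% identical over 402 bp of coding sequence. Within 500 bp of each TSS, a window that includes part of the gene, 98.1% of the 50-base words occur once in the genome. The similarity of their flanks was not measured.

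**Figure D4:**
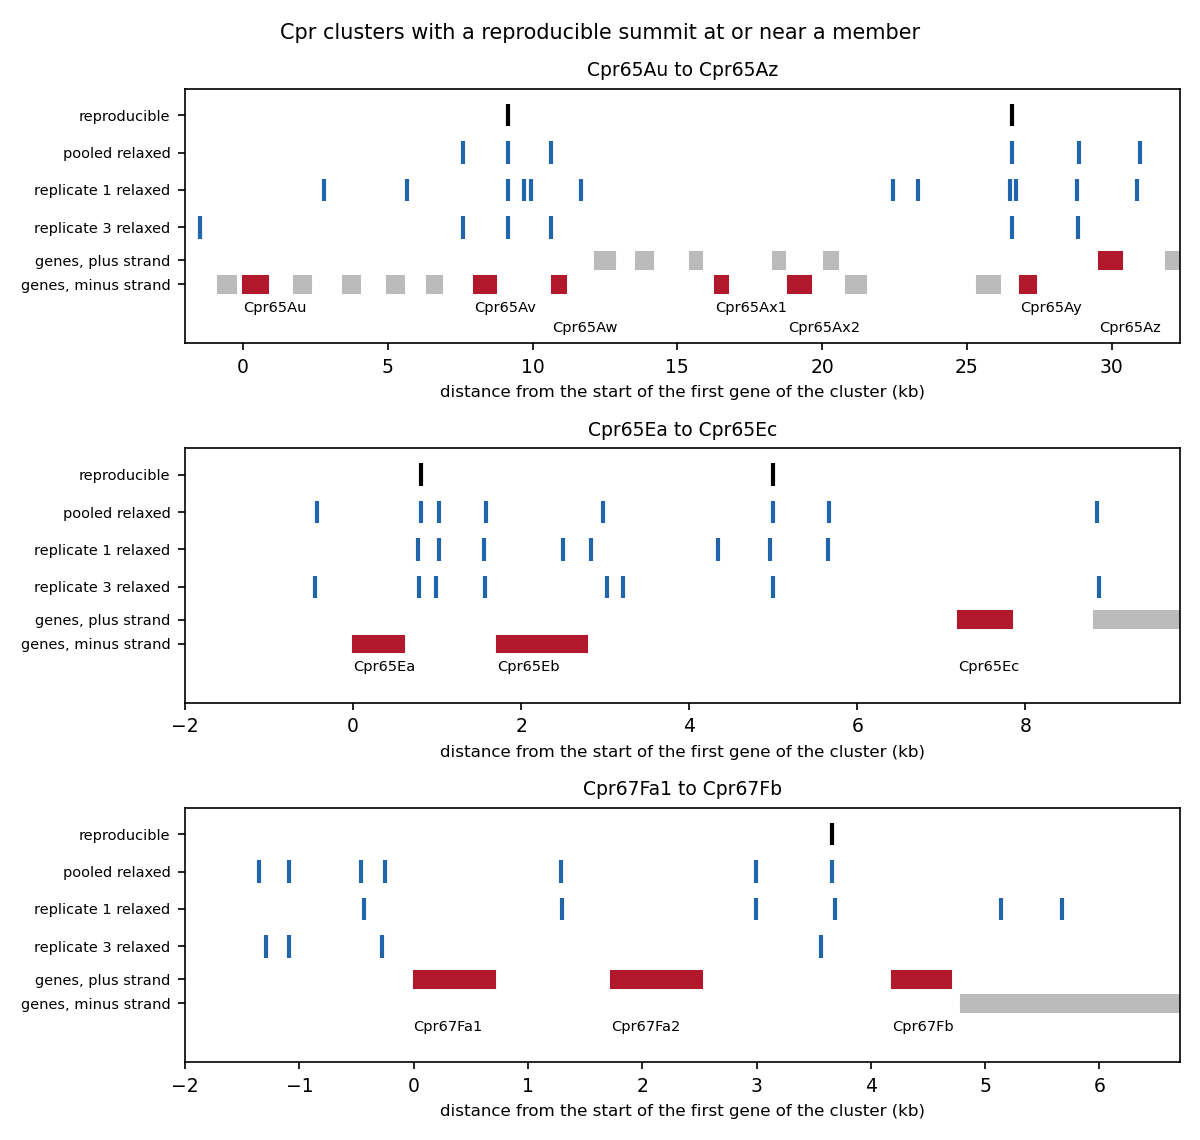
Map of the 3 clusters from Cpr65Au to Cpr65Az, Cpr65Ea to Cpr65Ec and Cpr67Fa1 to Cpr67Fb (x axis, distance in kb from the start of the first gene), with summits of each dm6 list as vertical ticks in 4 rows and genes as boxes by strand, Cpr genes in red and other protein-coding genes in grey. The reproducible ticks number 2, 2 and 1, and they fall beside Cpr65Av, beside Cpr65Ea and 524 bp before Cpr67Fb, with the other 2 away from Cpr promoters.

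Of the 5 clusters with 4 or more members, the other 4 had no bound member. The cluster from Cpr49Aa to Cpr49Ah, at chr2R:12376626-12415170, is the largest, with 8 members, and held no reproducible summit. Only Cpr49Ab and Cpr49Af had a summit within 500 bp in a replicate list. The cluster from Cpr47Ea to Cpr47Eg, at chr2R:11251751-11278445, has 7 members, none with a summit within 500 bp in any list. Cpr47Ef was just outside the rule, with summits 510 bp upstream in the pooled relaxed list and 503 bp upstream in replicate 1. The span of this cluster held 6 pooled relaxed summits, 2 of them reproducible with signals of 161 and 157. These 2 lay 488 bp and 704 bp from the TSS of TpnC47D, a troponin C gene, and more than 2 kb from the nearest member, Cpr47Eg.

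The cluster from Cpr64Aa to Cpr64Ad, at chr3L:4207838-4216414, and that from Cpr76Ba to Cpr76Bd, at chr3L:19517552-19538289, have 4 members each and no reproducible summit in their spans. Within 500 bp, Cpr64Aa had a region in replicate 3 only, and no Cpr76B gene had a summit in any list. The peak near Cpr76Ba lies just outside the span of its cluster. In the smaller clusters, Cpr62Ba of 3 members, Cpr72Eb of 3, Cpr78Ca and Cpr78Cc of 3, and Cpr50Ca of 2 were in at least 1 relaxed list, and the pair Cpr97Ea and Cpr97Eb was in none. Among the 21 single genes, Cpr23B, Cpr66D, Cpr67B and Cpr73D had a summit in a relaxed list and 17 had none. Those 17 include all 4 members on the X chromosome, Cpr5C, Cpr11A, Cpr11B and Cpr12A.

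Promoter letters were searched to see what the members share beyond their names. The letters TATAAA, starting 45 to 20 bp before the TSS on the gene's strand, were present at 39 of 70 Cpr genes (55.7%) and at 1229 of 13945 protein-coding genes (8.81%), taking the most upstream TSS of each. Over the 39 members they began at a median of 29 bp before the TSS. The initiator letters TCAGT, starting from 7 bp before to 3 bp after the TSS, were present at 4 Cpr genes (5.71%) and 10.1% of protein-coding genes. Between 250 bp before and 50 bp after the TSS, on either strand, TATCGATA, a site of the factor Dref, was present at 1 Cpr gene, Cpr49Af (1.43%), and at 9.36% of protein-coding genes. AACCGGTT, a site of Grainyhead, and CAAGGTCA, a site of Ftz-F1, were in no Cpr window and in 0.753% and 0.495% of all promoter windows. A match is a description of letters and not of a bound site.

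Both bound members are among the 39 with the TATA letters. Of Cpr genes with these letters 2 of 39 (5.13%) were bound, against 60 of 1229 protein-coding genes with them (4.88%). Of Cpr genes without them 0 of 31 were bound, against 1856 of 12716 (14.6%). In the pooled relaxed list the counts with the letters were 8 of 39 Cpr genes (20.5%) against 21.2% of protein-coding genes, and without them 3 of 31 (9.68%) against 36.6%. All 39 members with the letters have 1 annotated TSS, and among protein-coding genes with the letters and 1 TSS 3.03% were bound and 17.3% had a pooled relaxed summit. With the letters, the family's share was slightly the larger one in the reproducible list and slightly the smaller one in the pooled relaxed list. When only genes with 1 TSS were taken it was the larger share in both lists, though the bound share rests on 2 members. Without the letters the family's share was the smaller one in both lists. The promoter windows of Cpr genes also had a median A+T content of 54.5%, against 62% for all protein-coding genes. The part of either feature in the small number of bound members was not tested.

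**Figure D5:**
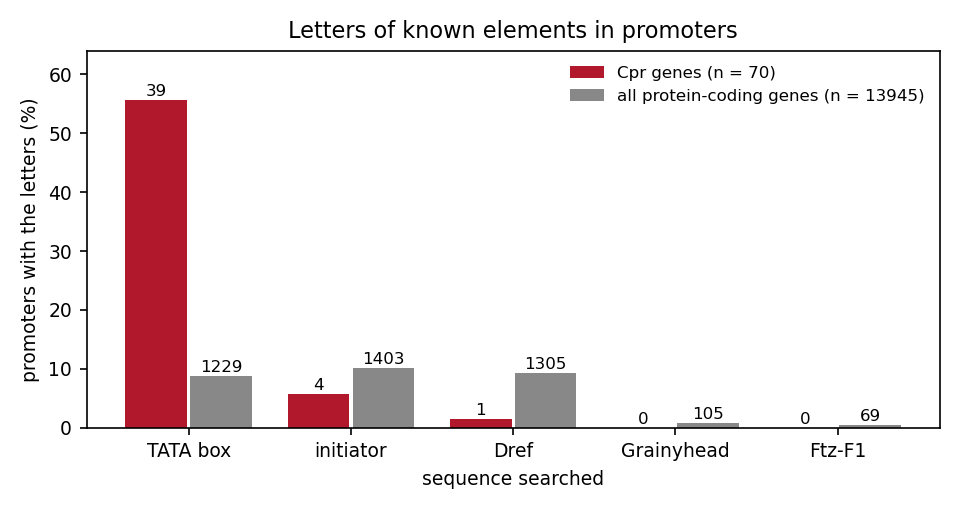
Share of promoters (y axis, %) that hold the letters of 5 known elements (x axis), for the 70 Cpr genes (left bar of each pair) and all 13945 protein-coding genes (right bar), with the number of promoters above each bar. The TATA letters are in 55.7% of Cpr promoters beside 8.81% of all, and the initiator and Dref letters are less frequent in Cpr promoters. The Grainyhead and Ftz-F1 letters are in no Cpr promoter. They are in only 0.753% and 0.495% of all, so their lack among 70 genes says little.

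Other genes of cuticle formation, and genes of chitin synthesis and turnover in general, were counted by the same rule. Another 65 cuticular protein genes were counted, among them the Lcp, Ccp84A, Twdl and obst genes. Some of them, such as the Lcp genes, carry the same consensus as the Cpr genes. Of these 65 genes, 0 were bound and 8 (12.3%) had a pooled relaxed summit, beside 13.7% and 35.2% of all protein-coding genes. Their shares resembled those of the Cpr genes in being the smaller ones. Of 31 genes of chitin synthesis, deposition and turnover, 4 (12.9%) were bound and 17 (54.8%) had a pooled relaxed summit. The 3 of highest signal were Cht7, a chitinase gene, Chs2, a chitin synthase gene, and Idgf2, a gene for a chitinase-like growth factor, with signals of 305, 221 and 176. A non-coding RNA gene had a TSS closer to the summit of Chs2, and CG5888 one closer to that of Idgf2.

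Of 21 cuticle tanning genes 1 (4.76%) was bound and 10 (47.6%) had a pooled relaxed summit. The bound gene was yellow-d of the Yellow protein family, with a signal of 129 near the lowest of the list. It had a region in replicate 3 but not in replicate 1. Of 10 genes grouped under the zona pellucida apical matrix, under which cuticle forms, 1 was bound, tyn, with a signal of 140. Of these 10 genes, 4 (40%) had a pooled relaxed summit. The shares over all protein-coding genes were 13.7% bound and 35.2% with a pooled relaxed summit. Of 20 regulators of cuticle gene transcription 6 (30%) were bound and 15 (75%) had a pooled relaxed summit. The 3 of highest signal were Eip75B, an ecdysone-induced nuclear receptor gene, with a signal of 461, tai, which encodes a coactivator of the ecdysone receptor, with 329, and grh, which encodes the epidermal factor Grainyhead, with 169. The relative signal was 2.34 in replicate 1 and 1.95 in replicate 3 at Eip75B, and 1.24 in replicate 1 and 1.70 in replicate 3 at tai. Eip75B and tai thus exceeded both bound Cpr genes in both libraries. These groups are small, were assembled by symbol, were not split by number of annotated TSSs and were not tested against each other.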

How the data were processed

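Anti-GFP ChIP-seq of Asciz-GFP embryos gave 1 group of 2 libraries, whose chromatin was sonicated to 200 to 800 bp, per the labels. The authors deposited narrowPeak lists in dm6: a relaxed list for each replicate, one for the pooled replicates, and a reproducible list kept by the irreproducible discovery rate. The signal of each region is the value the authors deposited and was used only within its list. Per the deposited file listings, the relaxed lists share 1 control alignment. The sources used here name no aligner or peak caller. The antibody label of the samples reads Asciz, while their description says anti-GFP.

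Gene models were those of Ensembl release 115, transposable elements left out, and bases were read from the RefSeq release 6 assembly. Coordinates are 1-based. A replicate region was matched to a peak by an overlap of at least 1 bp. The call of a summit within the window and the distance to the nearest summit were tested on summits placed at known genes. The other calculations were not tested in this way. Python 3.11.15, numpy 2.4.6, pandas 2.3.3, scipy 1.17.1, matplotlib 3.10.9 and Biopython 1.88 were used.

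The members and lists were chosen with earlier results of these data known, so no list was tested. The text names every bound member, every member with a pooled relaxed summit, clusters of 4 or more members, the 5 unbound members nearest to a reproducible summit, and the 3 bound genes of highest signal in each related group. Other names, the smaller clusters and the promoter letters were chosen after values were seen. Of the related symbols, 1 of the chitin group, 5 of the tanning group and 3 of the zona pellucida group matched no gene.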

Additional observations from a re-analysis of the deposited data

How the results depend on the processing

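With the window at 200 bp in place of 500 bp, 0 Cpr genes were bound (8.52% of protein-coding genes), 1 had a pooled relaxed summit (23.7%) and 1 had one in both replicate lists (15.2%). With 1000 bp, 5 were bound (17%), Cpr65Ay, Cpr67Fb and Cpr73D being added, 24 had a pooled relaxed summit (42.9%) and 16 one in both replicate lists (33.3%). Among the reproducible peaks of signal above their median, 0 Cpr genes were bound (8.14%). Among the 15000 strongest relaxed regions, 6 had a pooled summit (26.4%) and 4 one in both replicate lists (19.7%). In each of these cases the construction itself, a narrower or wider window or fewer regions, changed what could be counted. The number bound kept within 1.5 times the value of 2 with the nearest TSS only and with the most upstream TSS only. It also did so with the other cuticular protein genes added (2 of 135 genes). Overlap of the peak interval, also within that range, gave 3 by adding Cpr67Fb. With the strongest regions of 1 library alone, the number bound was 2 without replicate 1 and 3 without replicate 3, again by Cpr67Fb, and the relaxed count was 12 to 15. Clusters numbered 13 with a gap of 10 kb and 12 with 50 kb, 2 of them with a bound member in both cases. A requirement that the replicate summit lie within 200 bp could not change the relative signals at the bound members. Their replicate summits lay at most 35 bp from the pooled summit. No paired analysis was possible because there was 1 group. Depth is unknown, 2 libraries limit every SD, and the lists end at a fixed number of regions, so a missing region is not absence of binding.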
